A study of Mus musculus with 3 samples.

Results

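DNA end-joining genes encode the proteins that rejoin broken chromosome ends, and their transcript levels are described here in LT-HSCs, long-term haematopoietic stem cells, which maintain the blood over a lifetime. The genes were chosen by name: Xrcc6, Xrcc5, Prkdc, Dclre1c, Lig4, Xrcc4, Nhej1, Trp53bp1, Polq and Parp1. Of these 10 genes, 9 had a named probe set among the 23185 named genes of the deposited table, and Dclre1c was not analysed here. The rule for choosing them used gene names and no measured value, although the genes were chosen with earlier results of these data known.

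All cells came from bone marrow of female C57Bl/6 mice aged 8 to 10 weeks. The FLASH group was given 8 Gy to the whole body (total body irradiation, TBI) as FLASH, in which the radiation is delivered far faster than in ordinary radiotherapy. The CDR group was given 8 Gy TBI at CDR, read here as conventional dose rate from general use because the labels do not spell it out. The non-irradiated group had no TBI. For every group the labels give 10000 LT-HSCs isolated 15 days after TBI. Each group had 1 Affymetrix array, so that no difference below has a replicate check and no test was possible. No source used here gives the sorting gate, the number of mice behind an array or the dose rates.

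A DNA break with free ends on both strands is a lethal lesion if it is not repaired, and ionising radiation makes such breaks. In classical end joining, the Ku ring slides onto each end and recruits the kinase DNA-PKcs, the nuclease Artemis trims ends that cannot be joined, and DNA ligase IV with its scaffolds seals them. Alternative end joining instead anneals short stretches of matching bases with DNA polymerase theta, and 53BP1 shields ends from the resection that both alternative end joining and homologous recombination need. Resting stem cells have no sister chromatid to copy from, and classical end joining is known as their main way of repairing breaks.

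The start regions of the members whose levels differed most between arrays are shown with that of Xrcc6 as a contrast, a member with equal levels on all arrays. The windows run from 250 bases before to 50 bases after the annotated RefSeq start on build GRCm38.p6, read 5′ to 3′ along the gene. Capitals mark the words searched on both strands. These were CCAAT, known as the box bound by NF-Y, and TTTGAA, the core of an element found at cell cycle genes. The other words are those bound by E2F factors: TTTCCCGC, the related TTTCGCGC, and likewise TTTGCCGC as well as TTTGGCGC. No capitals in the windows shown belong to overlapping words.
Polq, chr16:37011536-37011835, plus strand: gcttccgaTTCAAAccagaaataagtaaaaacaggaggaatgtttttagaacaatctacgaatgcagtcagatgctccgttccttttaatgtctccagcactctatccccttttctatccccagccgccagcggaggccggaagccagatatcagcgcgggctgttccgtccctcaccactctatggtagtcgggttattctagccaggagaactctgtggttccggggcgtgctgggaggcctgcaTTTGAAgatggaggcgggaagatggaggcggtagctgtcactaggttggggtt
Lig4 start 1, chr8:9977631-9977930, minus strand: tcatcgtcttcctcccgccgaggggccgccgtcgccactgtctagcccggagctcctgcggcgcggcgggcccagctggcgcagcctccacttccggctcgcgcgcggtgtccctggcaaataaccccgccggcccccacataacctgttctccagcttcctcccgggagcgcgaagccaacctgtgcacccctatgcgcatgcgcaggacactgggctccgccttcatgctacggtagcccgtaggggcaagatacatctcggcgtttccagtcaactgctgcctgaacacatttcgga
Lig4 start 2, chr8:9976262-9976561, minus strand: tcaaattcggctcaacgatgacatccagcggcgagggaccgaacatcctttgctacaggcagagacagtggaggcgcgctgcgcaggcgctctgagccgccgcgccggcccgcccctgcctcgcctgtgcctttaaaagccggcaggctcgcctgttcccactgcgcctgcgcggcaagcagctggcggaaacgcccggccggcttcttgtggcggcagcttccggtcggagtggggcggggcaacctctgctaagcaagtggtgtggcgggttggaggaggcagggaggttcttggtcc
Xrcc4, chr13:90089559-90089858, minus strand: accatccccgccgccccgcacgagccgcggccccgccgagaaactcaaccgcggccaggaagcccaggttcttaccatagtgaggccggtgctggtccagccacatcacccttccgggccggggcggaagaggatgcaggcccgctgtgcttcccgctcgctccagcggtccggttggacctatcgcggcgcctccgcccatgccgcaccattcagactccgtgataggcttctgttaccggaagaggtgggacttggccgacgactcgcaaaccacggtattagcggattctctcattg
Xrcc6, chr15:82016119-82016418, plus strand: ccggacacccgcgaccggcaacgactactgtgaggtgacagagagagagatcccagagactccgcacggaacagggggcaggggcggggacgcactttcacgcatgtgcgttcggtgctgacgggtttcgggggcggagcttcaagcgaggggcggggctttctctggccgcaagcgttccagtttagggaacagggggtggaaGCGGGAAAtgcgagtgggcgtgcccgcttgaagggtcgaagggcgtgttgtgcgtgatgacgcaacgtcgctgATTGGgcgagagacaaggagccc

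Promoter windows were found for 8 of the 9 measured members, with 9 windows because Lig4 had 2 starts, and none was listed for Prkdc. Polq held TTTGAA at positions -242 and -3, with the start as position 1 and the first of these on the opposite strand. This word occurred in 17.9% of 32851 RefSeq windows of the same length. Xrcc6 held the E2F word TTTCCCGC at position -46 and CCAAT at position 28, both on the opposite strand. Any of the E2F words searched was found in 2.26% of windows, and TTTCCCGC itself in 351 of the 32851. CCAAT was also in the Xrcc5 window and occurred in 37.4% of all windows. The windows of Lig4, Xrcc4, Nhej1, Trp53bp1 and Parp1 held none of the words searched. The G and C content was 52.7% in the Polq window, 66.3% and 67.3% in those of Lig4, 65.7% in that of Xrcc4 and 64.3% in that of Xrcc6. These matches are a description of letters, not of binding.

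Levels are the authors' processed values on a log scale, taken as log2, and levels of different genes are not compared because probes differ in brightness. Detection in a comparison required that the brighter array exceed the 95th percentile of 1368 receptor genes of smell and pheromone sensing (odorant, vomeronasal and trace amine), assumed silent here. That detection level was 4.21 for FLASH, 4.16 for CDR and 4.15 for non-irradiated. All 9 members read above it on every array, by at least 0.62. The 11 measured LT-HSC markers were also above it on every array, and so were all 9 erythroid and all 7 megakaryocyte markers. Of 9 B and plasma cell markers, 7 were above it on each array. Of 9 granulocyte markers, 7 were above it on FLASH, 6 on CDR and 7 on non-irradiated. For 10 monocyte and dendritic cell markers the counts were 9, 8 and 8. Of 9 T and NK cell markers, 3 were above it on FLASH, 3 on CDR and 4 on non-irradiated. Detection thus did not set the LT-HSC markers apart from those of most other lineages. Cd8a, Ncr1 and Klrb1c were the T and NK cell markers above it on every array, and the T cell genes Cd3e, Cd3d and Cd3g were below it on every array. Precision is limited by the number of arrays. In a description of the scatter, 10 housekeeping genes differed by -0.03 to 0.30 between FLASH and non-irradiated, by -0.22 to 0.44 between CDR and non-irradiated, and by -0.15 to 0.19 between FLASH and CDR. The middle 95% of the receptor genes, which are dim, lay from -0.52 to 0.44, -0.49 to 0.44 and -0.40 to 0.43 in the same comparisons.

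The 3 genes of end recognition had equal values on all arrays. Xrcc6, the Ku70 subunit of the ring that first grips a broken end, read 8.35 on the FLASH, CDR and non-irradiated arrays. Xrcc5, the Ku80 subunit, read 7.09 on all of them. Prkdc, the catalytic subunit of DNA-PK that Ku brings to the end, read 6.46 on all of them. These are exact ties at the precision of the deposited table.

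Such ties were common in the table and are a property of the deposited values, so that a tie is not a measured equality of transcript amounts. All arrays were equal for 5 of the 9 members, against 27.1% of 13518 genes detected in any comparison. The members with complete ties were Xrcc6, Xrcc5, Prkdc, Nhej1 and Trp53bp1. The FLASH and CDR arrays alone were equal for Polq and Parp1, the FLASH and non-irradiated arrays for Xrcc4, and the CDR and non-irradiated arrays for Lig4. None of the 9 had 3 different values, while 42.2% of detected genes did. No source used here gives the summarisation step of the processing.

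**Figure D1:**
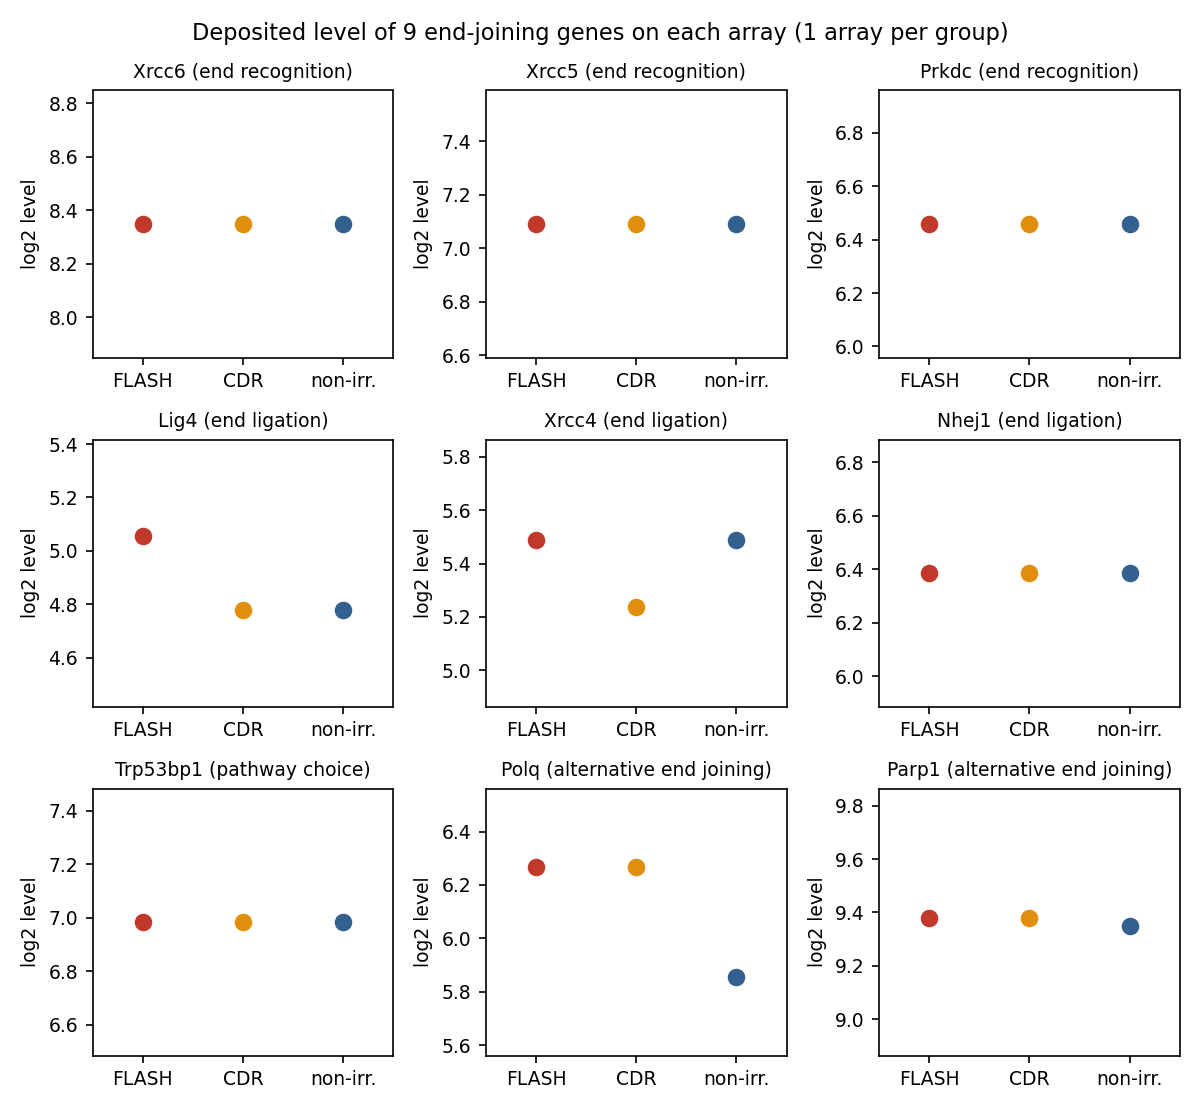
Deposited log2 level (vertical axes, each spanning 1 log2 unit) of each measured end-joining gene on the FLASH, CDR and non-irradiated arrays (horizontal axes), 1 point per array, with no error bar because each group had 1 array. Points lie on 1 line for Xrcc6, Xrcc5, Prkdc, Nhej1 and Trp53bp1, Polq is higher on both irradiated arrays, Lig4 is higher on the FLASH array and Xrcc4 is lower on the CDR array.

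The ligation genes did not share a pattern. Lig4, the ligase that seals the ends, read 5.06 on the FLASH array, against 4.78 on both the CDR and the non-irradiated array. The FLASH array alone was higher, by 0.28 on the log2 scale or 1.21-fold against either of the others. Lig4 was also the dimmest member relative to the detection level, 0.85 above it on the FLASH array and 0.62 and 0.63 above it on the CDR and non-irradiated arrays. Xrcc4, the scaffold that stabilises the ligase, read 5.49 on FLASH and 5.24 on CDR, against 5.49 on non-irradiated. The CDR array alone was lower, by a log2 difference of -0.25 or 1.19-fold against the non-irradiated array. Nhej1, also called XLF or Cernunnos, which forms filaments with Xrcc4 across the break, read 6.39 on all arrays. The ligase and its scaffold thus differed on different irradiated arrays, and for neither gene did both irradiated arrays depart from the non-irradiated one.

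In bulk RNA of this kind, fewer cells that express a gene and less RNA per cell cannot be told apart. Against non-irradiated, the Lig4 difference on the FLASH array lay inside the housekeeping range of that comparison. At least as high a difference was found in 11.9% of 13296 detected genes. The Xrcc4 difference on the CDR array lay just outside the housekeeping range of its own comparison, whose low end was Srp14 at -0.22. At least as low a difference was found in 13.4% of 13448 detected genes. Both differences lay inside the middle 95% of the receptor genes. Between the irradiated arrays both genes were higher on FLASH than on CDR, Lig4 by 0.28 and Xrcc4 by 0.25. Both values were above the housekeeping range, whose high end was Srp14 at 0.19, and inside the middle 95% of the receptor genes. Of 13192 detected genes, 4.72% were higher on FLASH than on CDR by at least as much as Lig4 and 5.50% by at least as much as Xrcc4. With an offset of 32 added before the log, which shrinks dim genes, the FLASH minus CDR values were 0.14 for both genes. Markers of LT-HSCs and of other cell types also differed between FLASH and CDR. Of 11 detected LT-HSC markers, 7 were higher on FLASH and 2 lower, from Kit at -0.40 to Procr at 0.91. Of 9 detected erythroid markers, 7 were higher and 1 lower, with a median of 0.16. For 7 detected granulocyte markers the counts were 3 higher and 4 lower, with a median of -0.023. For 7 detected megakaryocyte markers they were 4 and 2, with a median of 0.063. Of 7 detected B and plasma cell markers, 5 were higher on FLASH and 1 lower, with a median of 0.63. Summed linear levels over 9 measured markers were 4340.66 on FLASH and 2166.97 on CDR. Such sums, here and below, are weighted towards the brightest genes of a list and do not measure cell numbers. In this list the brightest was Ighm, at 11.64 on FLASH and 10.49 on CDR. Of 9 detected monocyte and dendritic cell markers, 6 were higher on FLASH and 2 lower, with a median of 0.87. Their summed levels over 10 measured markers were 4343.33 on FLASH and 3705.46 on CDR. The 2 lower were the monocyte genes Csf1r, at -1.01, and Ly6c2, at -0.72. The higher ones were Clec9a, Xcr1, H2-Eb1, H2-Aa, Cd74 and Itgax, so this list did not move as 1 cell type. Over all detected genes, 25.7% were higher and 31.9% lower on FLASH than on CDR. The B cell genes Ebf1 and Ms4a1 and the dendritic cell gene Cd209a were under the detection level on both arrays. The part of these cells in the Lig4 and Xrcc4 differences was not tested.

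Trp53bp1 encodes 53BP1, which binds the chromatin beside a break and holds back resection. It read 6.98 on all arrays, again an exact tie.

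Alternative end joining held the member that differed most. Polq, which encodes polymerase theta, read 6.27 on the FLASH array and 6.27 on the CDR array, against 5.86 on the non-irradiated array. Both irradiated arrays were higher by the same 0.41 on the log2 scale, or 1.33-fold, and they were exactly equal to each other. Both differences were taken against the same non-irradiated array and so are not separate observations. At least as high a difference was found in 6.88% of 13296 detected genes for FLASH and 6.52% of 13448 for CDR. The value was above the housekeeping range for FLASH and below the high end of that range for CDR, which was Gusb at 0.44. It lay inside the middle 95% of the receptor genes in both comparisons. Under the other scalings and the offset it stayed positive, from 0.28 to 0.46 for FLASH and from 0.28 to 0.47 for CDR. Parp1, the poly(ADP-ribose) polymerase that senses breaks and helps alternative end joining, read 9.38 on both the FLASH and the CDR array and 9.35 on the non-irradiated array. That difference of 0.03 lay inside the housekeeping range, and for CDR its sign turned under quantile and cyclic loess scaling.

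Most mitosis genes were, like Polq, higher on both irradiated arrays. Of 24 measured mitosis genes, 23 were higher and 0 lower on each irradiated array against the non-irradiated one. Over all detected genes, 33.8% were higher and 32.9% lower on FLASH, and 34.7% and 30.4% on CDR. Of 10 housekeeping genes, 9 were higher and 1 lower on each. The mitosis genes had a summed linear level of 15043.1 on FLASH and 14505.9 on CDR, against 10817.5 on non-irradiated. The 9 measured erythroid markers were all higher on both irradiated arrays, with a summed linear level of 4065.75 on FLASH and 3874.75 on CDR, against 2151.36 on non-irradiated. Of the 11 LT-HSC markers, 9 were lower and 1 higher on FLASH, and 10 lower and 0 higher on CDR. They summed to 1852.72 on FLASH and 1866.35 on CDR, against 3655.35 on non-irradiated, with Kit, Hlf and Meis1 the brightest. All measured mitosis, erythroid and LT-HSC genes were above the detection level on every array. Of the monocyte and dendritic cell markers, 6 of 9 detected were higher and 2 lower on FLASH, and 7 of 8 higher and 0 lower on CDR. The 2 lower on FLASH were the monocyte genes Csf1r, at -0.78, and Ly6c2, at -0.59, which were at 0.23 and 0.13 on CDR. The list had a summed level of 4343.33 on FLASH and 3705.46 on CDR, against 3058.73 on non-irradiated. In this list Cd209a was under the detection level on every array. Megakaryocyte markers were lower for 6 of 7 on FLASH and 7 of 7 on CDR, with summed levels of 1142.69 and 1101.84, against 1755.79 on non-irradiated. Granulocyte markers were mixed, with 3 of 7 detected higher and 4 lower on each irradiated array, and 3 of these at least 2-fold lower. Elane, Mpo and Prtn3 were higher, and S100a8, S100a9, Camp and Ngp lower, with Camp under the detection level on CDR. The part of proliferation or of other cell types in the Polq difference was not tested.

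Among 113 detected genes of the partner and comparison lists, the pattern of Polq was most like those of Tpx2, Nuf2, Gins1, Cenpa and Fen1. This pool held 25 replication and 24 mitosis genes, most of them higher on both irradiated arrays, and no gene outside the lists was searched. Cell cycle genes among the nearest are therefore no sign of a particular link to Polq. Likeness was the distance over 2 differences, FLASH and CDR each against non-irradiated, and ranged from 0.028 for Tpx2 to 0.048 for Fen1. Tpx2, a spindle assembly factor, was higher by 0.44 on FLASH and 0.41 on CDR. Fen1, the flap nuclease of DNA replication that also trims flaps in alternative end joining, read 7.27 on both irradiated arrays and 6.83 on the non-irradiated one, higher by 0.44 on each. With 3 arrays such likeness is a description of few points.

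Across the 9 members, none reached a 2-fold difference in any comparison. On FLASH against non-irradiated the counts of 2-fold higher and 2-fold lower members were 0 and 0, against 1.17% and 1.75% of detected genes. On CDR against non-irradiated the counts were 0 and 0, against 0.766% and 2.36%. On FLASH against CDR they were 0 and 0, against 0.849% and 0.144%. With backgrounds this low, a count of 0 among 9 genes is near the background share. At 1.5-fold the counts were also 0 in each direction, with backgrounds of 3.6% higher and 5.29% lower for FLASH against non-irradiated, 3.2% and 5.38% for CDR against non-irradiated, and 1.85% and 0.781% for FLASH against CDR. At 1.2-fold, Polq and Lig4 were higher on FLASH than on non-irradiated (background 12.7%), Polq was higher on CDR than on non-irradiated (12.8%) and Lig4 was higher on FLASH than on CDR (5.1%). No member was 1.2-fold lower in a comparison, where the backgrounds were 13.8%, 12.8% and 4.95%.

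Counted by any difference in deposited values, 3 members were higher, 0 lower and 6 equal on FLASH against non-irradiated, where 33.8% of detected genes were higher, 32.9% lower and 33.2% equal. On CDR against non-irradiated, 2 were higher, 1 lower and 6 equal, against 34.7% higher, 30.4% lower and 34.9% equal. On FLASH against CDR, 2 were higher, 0 lower and 7 equal, against 25.7% higher, 31.9% lower and 42.4% equal. The median difference of the members was 0 in each comparison, as was that of all detected genes. Rescaling breaks the ties by small amounts, and counts of higher and lower members then depended on the scaling. With median centring they were 9 and 0 for FLASH against non-irradiated, where 69.6% of detected genes were higher and 30.4% lower. They were 8 and 1 for CDR against non-irradiated (74.6% and 25.4% of detected genes) and 2 and 7 for FLASH against CDR (20.7% and 79.3%), so that tied genes followed the shift common to all. With cyclic loess they were 6 and 3 (55.7% and 44.3%), 2 and 7 (52.0% and 48.0%), and 9 and 0 (56.8% and 43.2%) in the same order. Under the deposited values and 4 rescalings alike, Polq, Lig4 and Parp1 were higher on FLASH than on non-irradiated, Polq was higher and Xrcc4 lower on CDR than on non-irradiated, and Lig4 and Xrcc4 were higher on FLASH than on CDR.

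**Figure D2:**
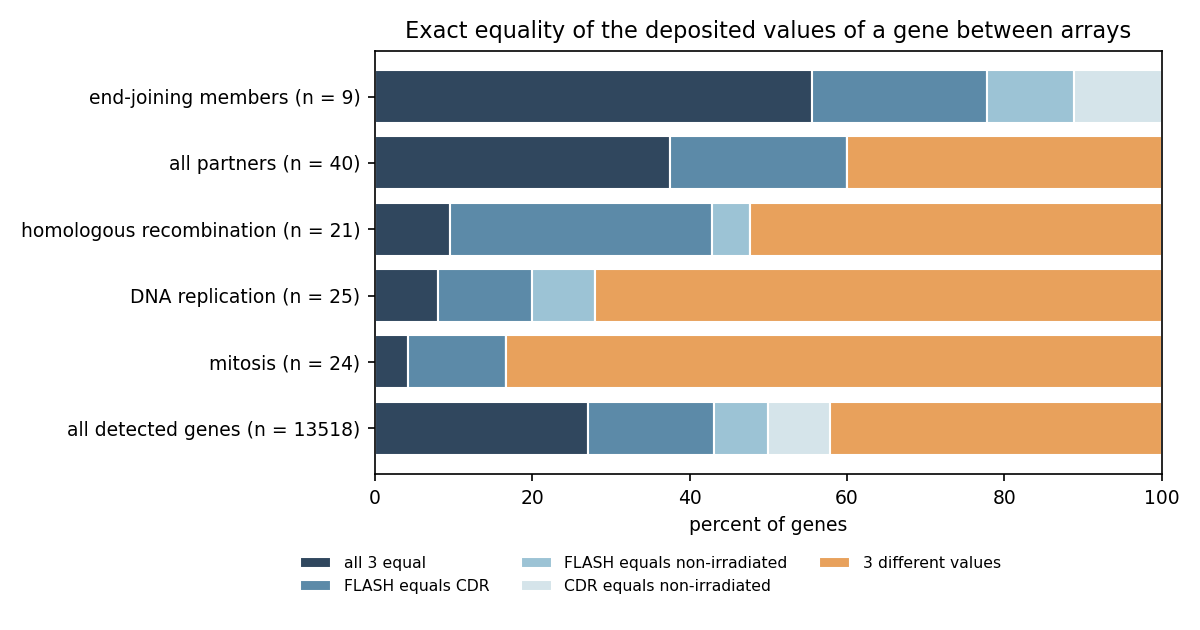
Share of genes (horizontal axis, percent) by which arrays hold exactly equal deposited values, for the 9 end-joining members, their 40 partners, 3 other gene lists and all 13518 detected genes. All arrays are equal for 5 of 9 members (55.6%) and 27.1% of detected genes, and no member has 3 different values.

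The other genes of end joining were read from lists of 40 measured partners, of which 39 were detected in each comparison and Polm, a gap-filling polymerase, was not. On FLASH against non-irradiated 0 partners passed 2-fold upwards and 1 downwards, and the same counts held on CDR against non-irradiated. On FLASH against CDR the counts were 0 and 0. Over all detected genes, 1.17% were 2-fold higher and 1.75% lower on FLASH against non-irradiated. The shares were 0.766% and 2.36% on CDR against non-irradiated, and 0.849% and 0.144% on FLASH against CDR. Counts of 0 and 1 among 39 genes are near these shares. The median difference over the detected partners was 0.0050 for FLASH and 0.012 for CDR against non-irradiated, and 0 between FLASH and CDR.

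The single partner past 2-fold was Dntt, the terminal transferase that adds untemplated bases during antigen receptor joining by the end-joining machinery. It read 6.90 on FLASH and 6.30 on CDR, against 8.99 on non-irradiated. Both irradiated arrays were lower, by log2 differences of -2.09 on FLASH and -2.68 on CDR, and the FLASH array was 0.60 above the CDR array. B cell and plasma cell markers were also mostly lower on the CDR array: 6 of 7 detected markers were lower on CDR, and 4 were lower and 1 higher on FLASH. Over all detected genes, 30.4% were lower on CDR and 32.9% on FLASH. The summed linear level of 9 measured B and plasma cell markers was 4340.66 on FLASH and 2166.97 on CDR, against 5252.28 on non-irradiated. Ebf1 and Ms4a1 were not detected on any array, and the part of lymphoid cells in the Dntt difference was not tested.

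Among the other partners of classical end joining, Ercc6l2, an ATPase that takes part in end joining, read 7.07 on FLASH and 7.13 on CDR, against 6.51 on non-irradiated, higher by 0.55 and 0.62. Aplf, which docks on Ku and Xrcc4, was higher by 0.26 on FLASH and 0.35 on CDR. Tdp1, which clears blocked ends, was higher by 0.28 on each. Paxx, a relative of Xrcc4 and Nhej1 that binds Ku, read 7.69 on FLASH and 7.80 on CDR, against 8.06 on non-irradiated, lower by log2 differences of -0.37 and -0.26. Aptx, which removes abortive ligation products, was at -0.21 on each. The polymerase gene Poll, Cyren, Tdp2 and Wrn were equal on all arrays. In this list of 10 detected genes 3 were higher, 3 lower and 4 equal on each irradiated array against the non-irradiated one. Over all detected genes, 33.8% were higher and 32.9% lower on FLASH, and 34.7% and 30.4% on CDR, so these counts are near the background.

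Around 53BP1, 7 of 12 detected partners were equal on all arrays, 5 were higher and 0 lower on each irradiated array against non-irradiated. Over all detected genes, 33.8% were higher and 32.9% lower on FLASH, and 34.7% and 30.4% on CDR. Under the rescalings the ties broke by small amounts, and 4 of the 12 stayed higher for FLASH and 5 for CDR. The equal genes were the shieldin genes Shld1 and Shld2, Mad2l2, which joins shieldin as REV7, the ubiquitin ligase genes Rnf8 and Rnf168 that mark broken chromatin for 53BP1, Mdc1, and Nudt16l1, a binder of 53BP1. Dynll1, a dynein light chain that binds 53BP1, read 6.46 on FLASH and 6.71 on CDR, against 5.97 on non-irradiated, higher by 0.49 and 0.73. Rif1, the 53BP1 effector, was higher by 0.17 on each. Helb, a helicase that restrains resection, read 7.23 on FLASH, 7.49 on CDR and 7.23 on non-irradiated.

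Partners of alternative end joining were higher more often than lower, with a small median. Of 17 detected genes, 12 were higher, 1 lower and 4 equal on FLASH, and 13 were higher, 0 lower and 4 equal on CDR, each against non-irradiated. Their median differences were 0.056 on FLASH and 0.11 on CDR, and they stayed between 0.042 and 0.081 and between 0.082 and 0.17 under the rescalings. These medians are close to those of the 10 housekeeping genes, 0.085 and 0.10, of which 9 were higher and 1 lower on each irradiated array. Over all detected genes, 33.8% were higher on FLASH and 34.7% on CDR. Besides Fen1, Rhno1, a partner of the checkpoint clamp that also binds polymerase theta, was higher by 0.31 on FLASH and 0.36 on CDR, and Pold2, a subunit of DNA polymerase delta, by 0.17 and 0.29. The ligase genes differed little, Lig3 by 0.07 and 0.11 and Lig1 by 0.01 on each. Apex2, a nuclease, was the gene with opposite signs, with 5.89 on FLASH and 6.26 on CDR, against 6.09 on non-irradiated.

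**Figure D3:**
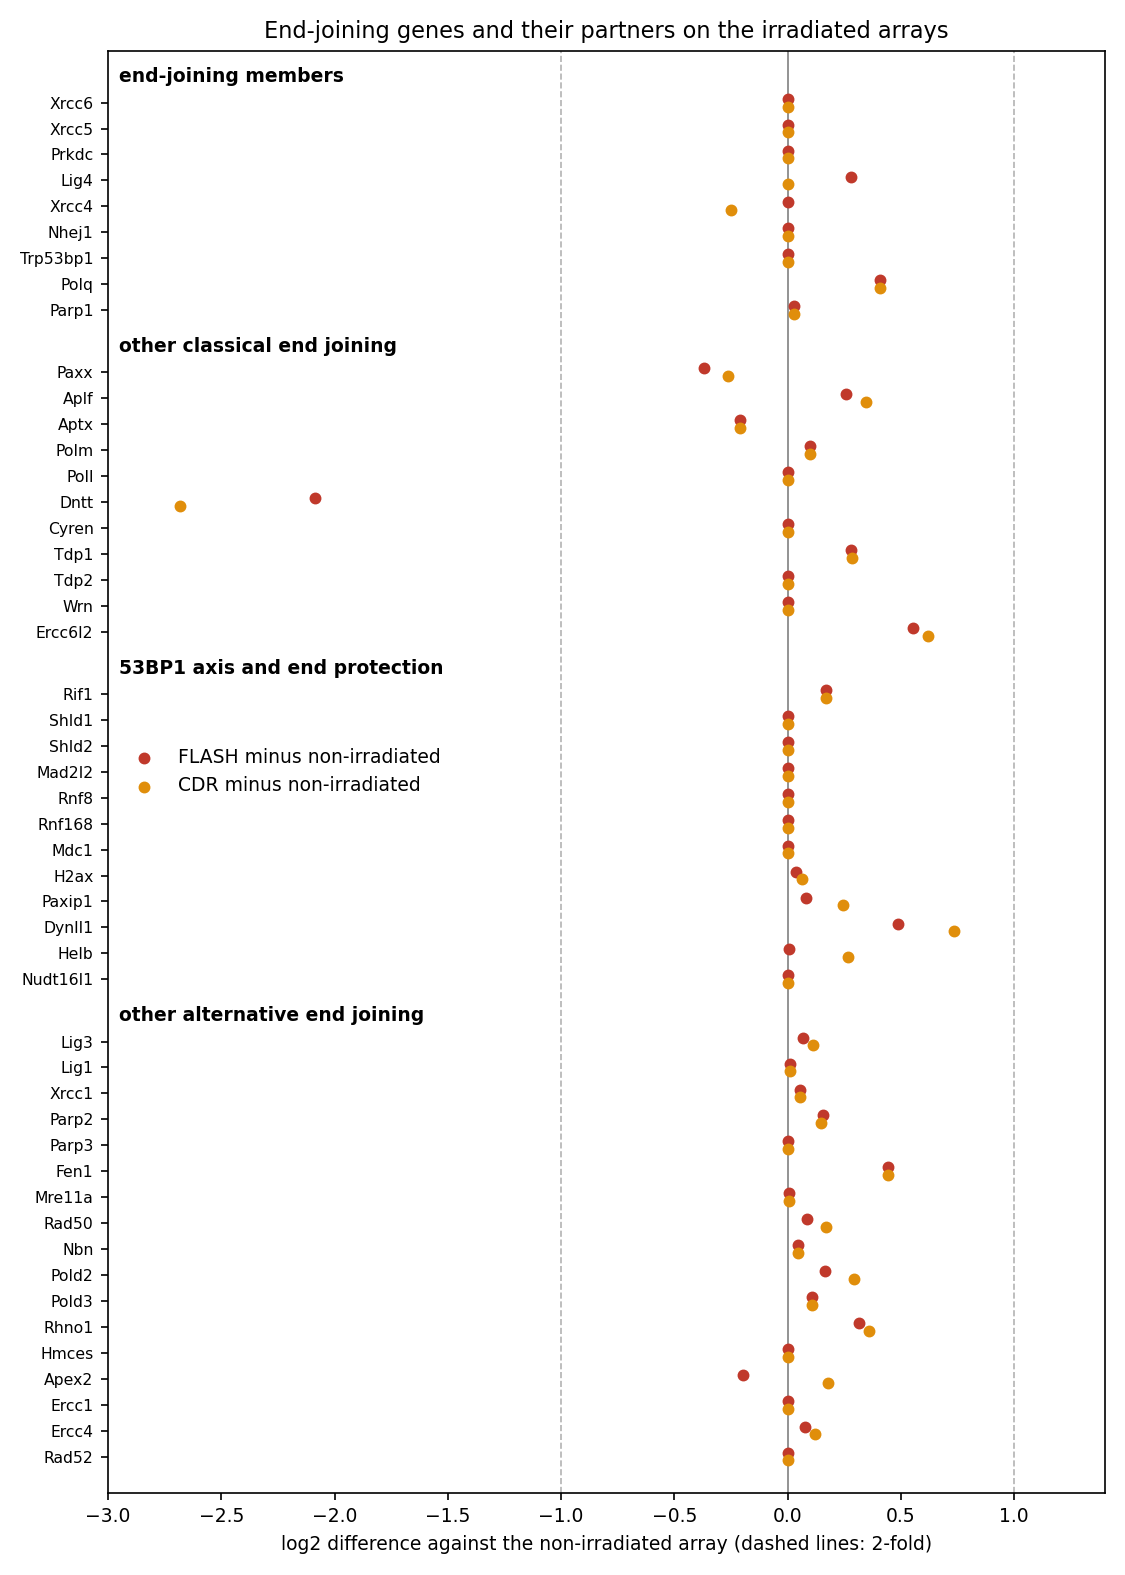
Log2 difference of the FLASH array (red) and the CDR array (orange) from the non-irradiated array (horizontal axis) for the 9 end-joining members and 40 partners (rows), 1 point per comparison, with dashed lines at 2-fold. Dntt, at -2.09 and -2.68, lies outside the dashed lines, and Polq lies at 0.41 on both.

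For comparison with the members, 3 other gene lists were read on the irradiated arrays. Over all detected genes, 33.8% were higher and 32.9% lower on FLASH, and 34.7% and 30.4% on CDR. Of 10 housekeeping genes, 9 were higher and 1 lower on each, with medians of 0.085 on FLASH and 0.10 on CDR. Homologous recombination genes, which repair breaks from a sister copy, had 15 of 21 detected genes higher and 3 lower on FLASH, with a median of 0.11, and 16 higher and 3 lower on CDR, with a median of 0.17. Mre11a, Rad50 and Nbn, higher on both arrays, were counted in this list and also among the partners of alternative end joining. Fanca was higher by 0.56 and 0.58, Palb2 by 0.44 on each, and Rad51d was at -0.26 on each. DNA replication genes had 21 of 25 higher and 0 lower on FLASH and 23 higher and 0 lower on CDR, with medians of 0.19 and 0.18. Mitosis genes had medians of 0.46 on FLASH and 0.39 on CDR. The member median was 0 on both arrays, with means of 0.080 and 0.021, and rested on 6 exact ties of 9. The order of the lists depended on the ties: with equal genes left out, the FLASH median was 0.28 for the members, against 0.15 for homologous recombination, 0.23 for replication and 0.47 for mitosis. The CDR median was then 0.029 for the members, against 0.18, 0.20 and 0.40 for the same lists. These member medians rested on 3 higher members on FLASH, where the middle value was that of the dim gene Lig4. On CDR they rested on 2 higher members and 1 lower, where the middle value was that of Parp1. No test of these differences between lists was made.

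**Figure D4:**
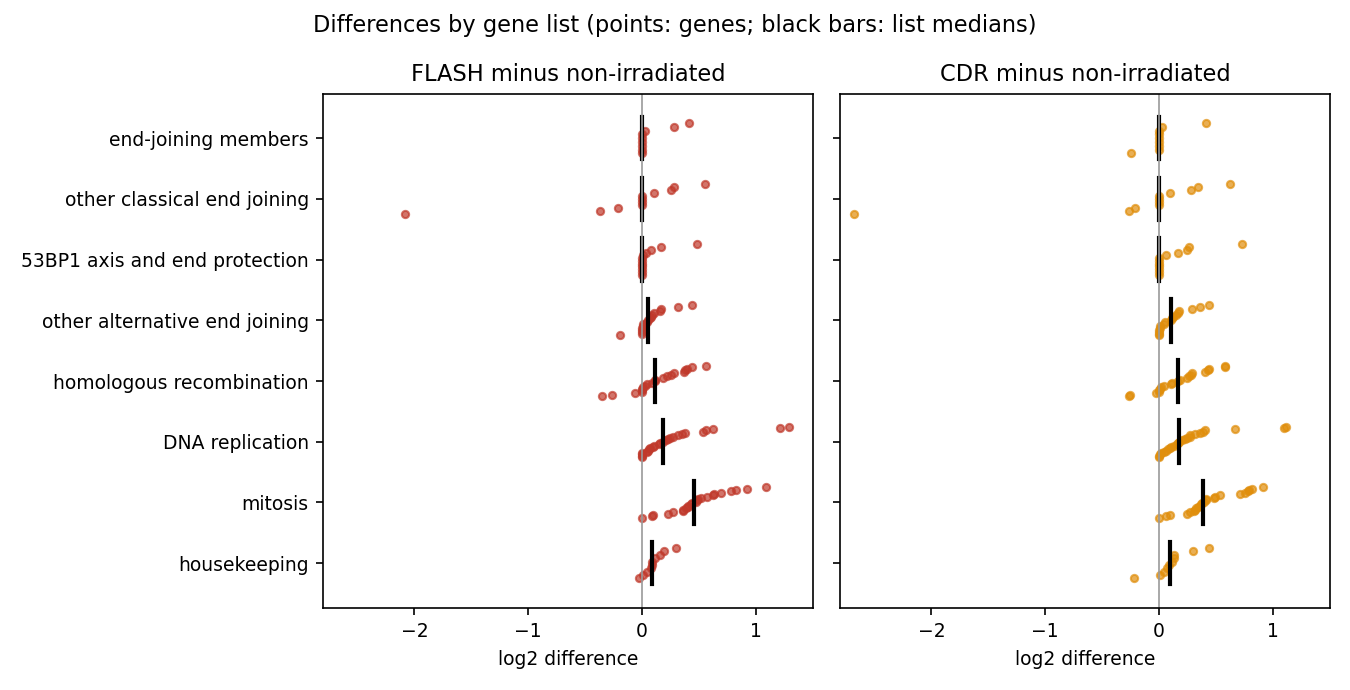
Log2 difference from the non-irradiated array (horizontal axes) of the FLASH array on the left and the CDR array on the right, by gene list (rows), with 1 point per measured gene and a black bar at the list median. The end-joining members have medians of 0 on both arrays, and mitosis genes have medians of 0.46 on FLASH and 0.39 on CDR.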

How the data were processed

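RNA of LT-HSCs from 3 groups was measured on 1 Affymetrix array each, with the whole transcript sense target assay, per the labels' protocols. The authors deposited log2 values, 1 per probe set. The log base was taken from the range of the deposited values. Partek is named, with no version, per the submitters' processing notes. No source used here gives the background correction, summarisation or normalisation. The table held 25206 probe sets. The platform's probe table gave 23185 of them 1 gene symbol, 0 several symbols, and left 2021 unnamed.

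Deposited values were used unchanged. Differences were taken between log2 values, with no test because each group had 1 array. Named genes were all members, up to 3 partners or comparison genes per list and direction with the largest differences, and the 5 genes nearest in pattern to the member that ranged most. Other genes were named after their values were seen. The members and lists were chosen with earlier results of these data known. Alternatives were median centring, quantile and cyclic loess normalisation (limma 3.58.1, R 4.3.3), an offset of 32, other filters on dim genes, other fold thresholds, means, and exact ties left out. Promoter windows came from RefSeq, build GRCm38.p6, matched by symbol. Steps ran in Python 3.11.15 with numpy 2.4.6 and pandas 2.3.3, plots used matplotlib 3.10.9, and the counting was tested on simulated data.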

Additional observations from a re-analysis of the deposited data

How the results depend on the processing

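With 1 array per group there is no replicate spread, and a value was taken as moved when it shifted by more than the SD of the housekeeping differences, a yardstick chosen after seeing the data. No member passed 2-fold under any scaling, offset or filter tried, nor 1.5-fold or 3-fold as deposited. At 1.2-fold in place of 2-fold, 2 members were higher on FLASH and 1 on CDR, each against non-irradiated, and 1 on FLASH against CDR. With exact ties left out, the median member difference was 0.28 for FLASH against non-irradiated and 0.26 for FLASH against CDR, because 6 and 7 of the 9 members drop out. The stricter filter, at the 99th percentile, removed Lig4 from every comparison. The offset shrank Lig4 to 0.14 and Polq to 0.28 on FLASH against non-irradiated. No paired analysis was possible because each group has 1 array. Dimness limits Lig4 most.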

Other observations

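Genes of the damage kinases and of p53, which were set beside the members, differed little between arrays. Atm, the kinase that answers double-ended breaks, read 6.98 on all arrays, and the checkpoint kinase gene Chek1 read 7.76 on all arrays. Atr, the kinase of stalled replication, read 6.93 on FLASH and 7.02 on CDR, against 6.76 on non-irradiated. Chek2 read 7.17 on FLASH and 7.07 on CDR, against 7.01 on non-irradiated. Cdkn1a, the p21 cell cycle inhibitor and p53 target, read 9.16 on FLASH and 9.39 on CDR, against 9.34 on non-irradiated. None of the 7 measured genes of this list reached 1.2-fold on either irradiated array against the non-irradiated one.

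The fully tied genes were unevenly spread over the lists, as a description of the deposited values. All arrays were equal for 7 of 12 genes around 53BP1 and 4 of 11 other classical end-joining genes, against 2 of 21 homologous recombination genes, 2 of 25 replication genes and 1 of 24 mitosis genes. Over all detected genes the share was 27.1%. Different genes also held the same deposited value, such as Trp53bp1 and Atm at 6.98 on all arrays, and Wrn and Nbn at 7.94 on both irradiated arrays. What sets this share or these equal values was not tested.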
